A study of Mus musculus and Homo sapiens with 9 samples.

Results

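The genes of the eukaryotic translation initiation factors (eIFs) were examined in 9 CUT&Tag peak lists. Members were the protein-coding genes whose symbol begins with EIF followed by a digit from 1 to 6. This gave 55 of 21938 protein-coding genes in the mouse annotation (GENCODE M21, mm10) and 56 of 20033 in the human annotation (GENCODE 44, hg38). A member was counted in a list when the midpoint of a narrow peak lay within 1 kb of an annotated transcription start site (TSS) of the gene, here called a promoter peak.

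In CUT&Tag an antibody bound in permeabilised cells recruits a transposase, which cuts and tags the nearby DNA for sequencing. The S9.6 antibody recognises RNA-DNA hybrids and was used to map R-loops, structures in which RNA pairs with a DNA strand and displaces the other. The 5 mouse libraries came from SV40-immortalised embryonic fibroblasts (MEFs). S9.6 was used in Mcm8 wildtype (WT) cells, in Mcm8 knockout (KO) cells that lack exon 7, in control cells (shControl) and in cells with Ddx5 knocked down by an adenoviral shRNA (shDdx5), and 1 wildtype library had no primary antibody. The 4 human libraries came from HEK293, an embryonic kidney line labelled wildtype. They used mouse IgG, S9.6, S9.6 after transfection of a plasmid labelled RNH1, and anti-FLAG after transfection of FLAG-MCM8. By RNH1 the study means RNase H1, which degrades the RNA of a hybrid, although the symbol also names a ribonuclease inhibitor. Each group held 1 library, so every comparison below is between libraries and has no replicate check. The peaks of the list labelled shControl carry names that begin with shD1, and those of the list labelled shDdx5 begin with shD2, so the lists are called by their labels. A peak list gives no check of the Mcm8 deletion or the Ddx5 knockdown.

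Translation initiation begins when eIF2, bound to GTP, carries the initiator tRNA to the small ribosomal subunit. The subunit also holds eIF3, a large scaffold, and the scanning factors eIF1, eIF1A and eIF5. The eIF4F complex, made of the cap-binding protein eIF4E, the scaffold eIF4G and the helicase eIF4A, brings the mRNA. eIF2B reloads eIF2 with GTP, and 4 kinases that phosphorylate eIF2 block this step under stress. These genes are used in nearly every cell and are usually transcribed from CpG-rich promoters, where R-loops are often mapped.

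Promoters of genes on which the comparisons turn are printed as the 120 bases before a TSS, so that their base composition can be set beside the peaks. Each TSS was the most upstream annotated one within 1 kb of the gene's strongest S9.6 peak, and none of these bases lies in an annotated exon. Capitals mark a GC box (GGGCGG) or a CCAAT box (CCAAT) on either strand, which overlap in EIF4G2. An E-box (CACGTG) and an ETS site (CCGGAAG) were also searched, and these letters were not in these windows. The first 4 mouse genes had a promoter peak in all 4 S9.6 lists of MEFs. They were read from mm10 at chr2:118388498-118388617 (+) for Eif2ak4, chr12:78861699-78861818 (+) for Eif2s1, chr12:111537896-111538015 (+) for Eif5 and chr11:69921959-69922078 (-) for Eif5a. Eif1ax, read at chrX:159372058-159372177 (+), is an example of a gene with a promoter peak in KO and shDdx5 and in neither of the other S9.6 lists.
Eif2ak4: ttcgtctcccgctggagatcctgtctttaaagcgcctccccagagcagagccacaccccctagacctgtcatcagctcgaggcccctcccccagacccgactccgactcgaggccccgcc
Eif2s1: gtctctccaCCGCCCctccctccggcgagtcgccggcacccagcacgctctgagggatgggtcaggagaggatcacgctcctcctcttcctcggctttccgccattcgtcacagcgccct
Eif5: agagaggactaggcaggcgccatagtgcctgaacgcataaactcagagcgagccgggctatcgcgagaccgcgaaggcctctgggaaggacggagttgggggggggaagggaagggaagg
Eif5a: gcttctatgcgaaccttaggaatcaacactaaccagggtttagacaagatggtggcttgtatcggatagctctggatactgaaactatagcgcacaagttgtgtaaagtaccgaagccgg
Eif1ax: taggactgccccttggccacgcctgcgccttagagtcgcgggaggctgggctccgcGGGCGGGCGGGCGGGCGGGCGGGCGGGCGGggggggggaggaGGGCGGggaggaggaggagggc

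The human genes below had a promoter peak in S9.6, in S9.6 labelled RNH1 and in FLAG-MCM8. EIF2B1 and EIF4A1 also did, but 106 and 120 bases of their windows lie in an annotated exon, and they are not printed. They were read from hg38 at chr17:41688765-41688884 (+) for EIF1, chr2:27370339-27370458 (-) for EIF2B4, chr11:10808941-10809060 (-) for EIF4G2 and chr17:7306879-7306998 (+) for EIF5A.
EIF1: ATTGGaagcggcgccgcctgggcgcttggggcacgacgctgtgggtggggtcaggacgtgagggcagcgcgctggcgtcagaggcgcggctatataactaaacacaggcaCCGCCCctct
EIF2B4: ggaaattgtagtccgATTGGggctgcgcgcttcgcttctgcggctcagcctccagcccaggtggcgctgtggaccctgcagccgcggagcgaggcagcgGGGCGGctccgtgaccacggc
EIF4G2: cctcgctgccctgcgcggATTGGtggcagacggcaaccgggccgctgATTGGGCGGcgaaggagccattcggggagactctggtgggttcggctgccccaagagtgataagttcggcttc
EIF5A: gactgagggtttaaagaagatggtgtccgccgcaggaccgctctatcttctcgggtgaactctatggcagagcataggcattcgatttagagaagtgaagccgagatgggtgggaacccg

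The windows differed in composition. GC content was 81.7% in Eif1ax, which held 8 GC box matches, most of them in a run, and between 63.3% and 67.5% in Eif2ak4, Eif2s1 and Eif5. It was 45.8% in mouse Eif5a and 53.3% in human EIF5A, the gene of a factor that carries the modified amino acid hypusine. The S9.6 peaks of both genes lay downstream of these windows. The number of CpG pairs ran from 5 in Eif5a to 14 in Eif1ax, and was 13 in both EIF1 and EIF2B4. Over the 250 bases before to 50 after the 5′ end of each gene, 41 of 55 mouse members (74.5%) held a GC box, against 43.0% of all protein-coding genes and 71.7% of those with a CpG-rich promoter. The share was 78.6% for human members, against 52.4% and 75.0%. An ETS site was found in 29.1% of mouse members and 23.2% of human members, against 10.8% and 11.9% of all genes and 18.6% and 17.6% of those with a CpG-rich promoter. An E-box was found in 14 of 56 human members (25.0%, against 8.36% of all genes and 10.1% of those with a CpG-rich promoter). It was found in 6 of 55 mouse members (10.9%, against 7.75% and 11.3%). A CCAAT box was found in 30.9% of mouse and 42.9% of human members, against 39.0% and 35.9% of all genes. These matches are letters and not sites of binding.

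The lists held 6481 (WT), 9605 (KO), 12259 (shControl), 11768 (shDdx5) and 4314 (no antibody) peaks in MEFs, at a peak caller's p of 0.001 or lower. The HEK293 lists held between 12504 and 17184 peaks at a p of 1e-05 or lower, so lists are compared only within a cell type. Of the peaks, 24.4% of shControl and 40.2% of shDdx5 lay at a protein-coding promoter, against 34.6% in WT, 33.0% in KO and 6.0% without antibody. The read depth of the libraries is not in these files. The number of fragments at each summit (the pileup) and the local background were solved from the fold and p of each peak. Member promoter peaks held 7 to 33 fragments at the summit in the S9.6 lists of MEFs and 13 to 48 in the S9.6 and FLAG-MCM8 lists of HEK293 cells, so counting error was wide throughout. Markers of the labelled cells were a poor check here, since promoter peaks are not expression. Of 10 fibroblast markers, 2 to 3 had a promoter peak in each S9.6 list of MEFs, with Vim in all 4, and of 6 HEK293 markers 2 had it in S9.6, 1 in S9.6 labelled RNH1, 1 in FLAG-MCM8 and 0 in IgG.

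Initiation factor genes carried promoter peaks more often than protein-coding genes as a whole in every S9.6 list, except that at a q of 0.05 or lower the share in KO was 9.09% against 9.8% of all genes. In WT it was then 9.09% against 6.32%. In MEFs, 10 of 55 members (18.2%, 95% Wilson interval 10.2 to 30.3) had a promoter peak in WT, against 11.3% of all protein-coding genes. In KO it was 13 of 55 (23.6%, 14.4 to 36.3) against 16.0%. In shControl it was 14 of 55 (25.5%, 15.8 to 38.3) against 14.7%, and in shDdx5 19 of 55 (34.5%, 23.4 to 47.7) against 23.1%. Without antibody only Eif1 had a promoter peak, 1.82% against 1.24%. In HEK293 cells, 29 of 56 members (51.8%, 39.0 to 64.3) had a promoter peak in S9.6, against 30.1%, and 25 of 56 (44.6%, 32.4 to 57.6) in S9.6 labelled RNH1, against 24.6%. FLAG-MCM8 had 10 of 56 (17.9%, 10.0 to 29.8) against 12.0%, and IgG 2 of 56 (3.57%, 0.985 to 12.1) against 5.59%. The interval excluded the share of all genes in shControl, shDdx5 and both S9.6 lists of HEK293 cells, and included it in WT, KO, no antibody, FLAG-MCM8 and IgG. Intervals cover counting error over genes only.

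**Figure D1:**
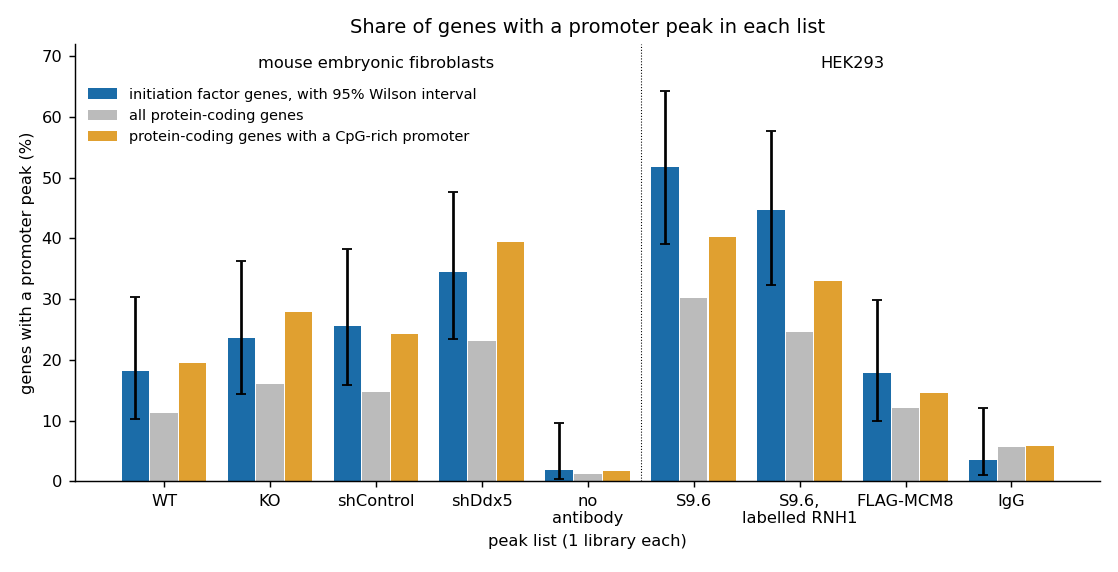
Share of genes with a promoter peak (percent) in each of the 9 lists, for initiation factor genes (55 mouse, 56 human; bars with 95% Wilson intervals), all protein-coding genes and protein-coding genes with a CpG-rich promoter. In the S9.6 lists of MEFs the members lie above all genes and near the CpG-rich genes, and in the 2 S9.6 lists of HEK293 cells they lie above both, at 51.8% and 44.6%.

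A CpG-rich promoter was common among the members. Over 500 bp to either side of the 5′ end, a GC content of at least 50% and an observed to expected CpG ratio of at least 0.6 were met by 47 of 55 mouse members (85.5%) and 48 of 56 human members (85.7%). The shares of all protein-coding genes were 44.4% and 57.9%. Among genes with CpG-rich promoters, the mouse members were near the background. The shares were 19.1% of members against 19.4% of genes in WT, 25.5% against 27.8% in KO, 25.5% against 24.3% in shControl and 38.3% against 39.4% in shDdx5. In HEK293 cells the members with CpG-rich promoters stayed above all genes with such promoters, at 58.3% against 40.3% in S9.6. In S9.6 labelled RNH1 it was 24 of 48 members against 32.9% of genes. FLAG-MCM8 gave 18.8% against 14.6%. Members also had more annotated TSSs, with a median of 4 in mouse and 9 in human, against 3 and 5 for all genes. Among genes with at least the members' median number, S9.6 gave 53.3% against 44.6%, and S9.6 labelled RNH1 43.3% against 37.0%. In MEFs this gave 21.6% against 17.7% in WT, 29.7% against 24.3% in KO, 21.6% against 22.5% in shControl and 35.1% against 35.8% in shDdx5. These properties were not combined. Of the 8 mouse members without a CpG-rich promoter, Eif5a and Eif4g1 had an S9.6 promoter peak, and of the 8 human ones EIF3C and EIF4EBP3 did.

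Many members share a promoter region with another gene. A TSS of another protein-coding gene lay within 1 kb of a TSS of 11 of 55 mouse members (against 14.6% of all genes) and 18 human members (32.1%, against 23.3%). Most of these pairs were divergent, as Eif2b1 and Gtf2h3 with TSSs 9 bp apart in the mouse and 27 bp in human, Eif1ad and Banf1 (50 and 52 bp), Eif2a and Serp1 (71 and 177 bp) and Eif2b4 and Snx17 (83 and 158 bp). A peak there cannot be assigned to a gene of the pair. In S9.6 of HEK293 cells, 14 of the 18 members with such a neighbour (77.8%) had a promoter peak, against 15 of the 38 without (39.5%). The shares over all genes were 46.2% and 25.2%. In S9.6 labelled RNH1 the members' shares were 44.4% and 44.7%, against 38.9% and 20.3% of all genes.

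The members differed by role in how many carried peaks, as the plots of members by list show. Of the 4 eIF2 subunit genes, 2 had a promoter peak in at least 1 S9.6 list of MEFs and 3 in at least 1 of HEK293 cells. For eIF2B it was 3 and 4 of 5 genes, and for the eIF2 kinases 2 and 2 of 4. Of the scanning and start codon factors it was 5 and 5 of 7, of eIF3 7 and 10 of 14, and of eIF4F with its helpers 6 and 7 of 12. Roles were assigned by gene symbol, so a member need not be part of the complex it is counted with. Eif1ad was counted with the scanning factors, and Eif4a3 and Eif4g2 with eIF4F, by symbol only. The repressors of eIF4E, which bind it in place of eIF4G or hold it away from ribosomes, gave 1 and 3 of 4. Roles were not tested against each other. Over all members, 28 of 55 (50.9%) had a promoter peak in at least 1 S9.6 list of MEFs, against 33.9% of all genes, and 37 of 56 (66.1%) in at least 1 S9.6 list of HEK293 cells, against 37.2%. Among genes with CpG-rich promoters the shares were 55.3% of members against 54.9% in MEFs, and 72.9% against 48.8% in HEK293 cells. The 27 mouse and 19 human members with no S9.6 promoter peak included EIF2AK2 (the kinase activated by double-stranded RNA), EIF2B5 (the catalytic subunit of eIF2B), EIF4A2, EIF4A3 (a helicase of the exon junction complex) and EIF6 in both species.

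In MEFs, Eif2ak4, Eif2s1, Eif5 and Eif5a had a promoter peak in all 4 S9.6 lists (4 of 55, 7.27%, 2.86 to 17.3), against 4.19% of all genes. Their peaks lay at the same places, with every pair of lists overlapping by at least 1 base. Among genes with CpG-rich promoters, 6.38% of members had a promoter peak in all 4 lists, against 7.92% of genes.

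**Figure D2:**
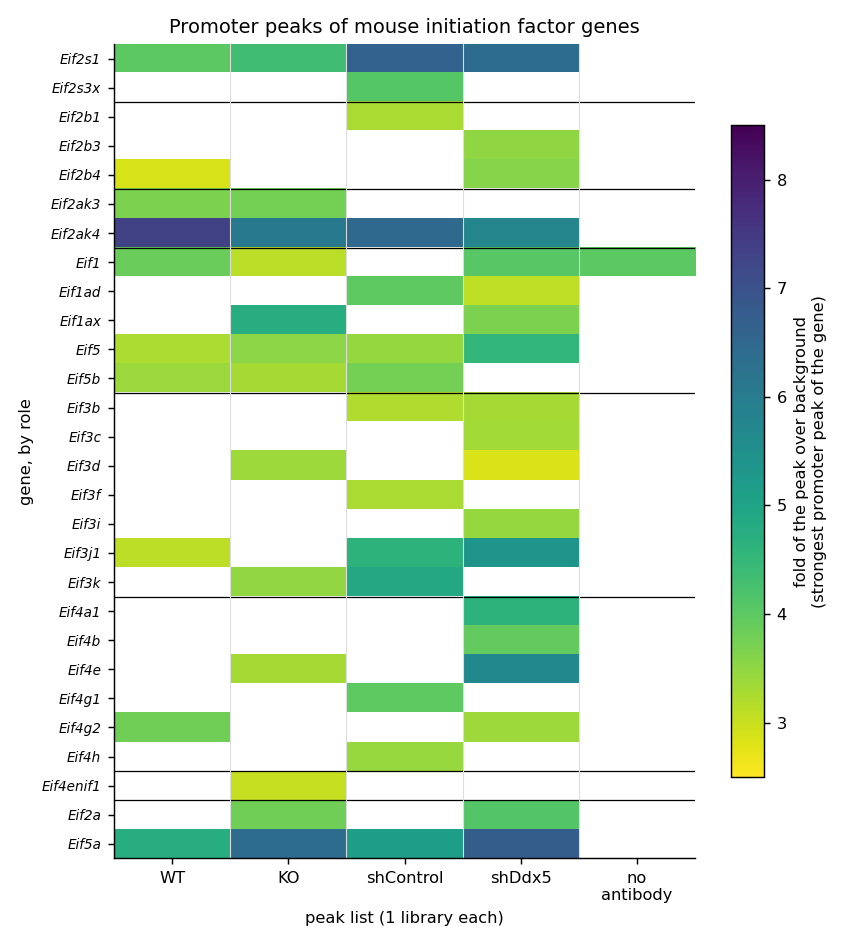
Fold over background of the strongest promoter peak of each mouse initiation factor gene with a peak in any of the 5 MEF lists. Rows are genes in blocks by role, columns are lists, and a blank cell has no promoter peak. Eif2ak4, Eif2s1, Eif5 and Eif5a are filled in all 4 S9.6 lists, and only Eif1 is filled without antibody.

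Eif2ak4 encodes GCN2, the eIF2 kinase that senses uncharged tRNA. The fold of its peak over background was 7.31 in WT (21 fragments at the summit), 6.08 in KO (19), 6.44 in shControl (17) and 5.78 in shDdx5 (18). Exact 95% Poisson intervals of these pileups, 13.0 to 32.1 in WT and 11.4 to 29.7 in KO, overlapped widely. The summits lay 59 to 63 bp upstream of the TSS in all 4 lists, inside the window printed above. In WT this was the strongest promoter peak of any member, at a −log10 q of 9.92 and rank 49 of 6481 peaks.

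Eif5a had the strongest member peak in KO and in shDdx5. Its fold was 4.76 in WT (22 fragments), 6.37 in KO (29), 5.13 in shControl (19) and 6.72 in shDdx5 (33), so the value was higher in KO than in WT and in shDdx5 than in shControl. The Poisson intervals of the pileups again overlapped, 13.8 to 33.3 in WT with 19.4 to 41.6 in KO, and 11.4 to 29.7 in shControl with 22.7 to 46.3 in shDdx5. The −log10 q was 5.52, 11.5, 5.24 and 14.3 in the same order. The summits lay 21 to 230 bp upstream of an alternative TSS and within an intron of the longest transcripts.

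Eif2s1 encodes the alpha subunit of eIF2, which the 4 kinases phosphorylate. The fold was 4.0 in WT (11 fragments), 6.62 in shControl (23) and 6.37 in shDdx5 (24). KO had a pair of peaks at this promoter, with folds of 4.33 and 3.98 (12 and 11 fragments). WT and KO values were thus below both shRNA lists, and shControl and shDdx5 differed by less than their counting error. The Poisson intervals of WT (5.49 to 19.7) and of the stronger KO peak (6.2 to 21.0) also overlapped those of shControl (14.6 to 34.5) and shDdx5 (15.4 to 35.7). The shControl peak was the strongest of the members in that list (−log10 q of 9.47) and was 1008 bp wide, beside the divergent gene Atp6v1d.

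Eif5 encodes the factor that makes eIF2 hydrolyse its GTP at the start codon. Its peaks were weak, with folds of 3.23 in WT (11 fragments), 3.54 in KO (12), 3.44 in shControl (12) and 4.53 in shDdx5 (20). Their −log10 q was 0.806, 1.42, 1.23 and 5.07, so that the WT and shControl peaks had a q above 0.05.

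Between WT and KO, 7 members had a promoter peak in both lists (12.7%, against 6.66% of all genes), 6 in KO and not in WT (10.9%, against 9.38%) and 3 in WT and not in KO (5.45%, against 4.66%). Among genes with CpG-rich promoters the share in both lists was 12.8% of members against 12.3%. The peaks of the 7 shared members overlapped in every case, against 91.4% over all genes with peaks in both lists. Fold was higher in KO for 4 of the 7 and lower for 3, and over all such genes it was higher in KO for 59.7%. The members gained in KO were Eif1ax, Eif2a, Eif3d, Eif3k, Eif4e and Eif4enif1, with folds between 3.03 and 4.77 and 8 to 10 fragments at the summit. Of these 6 peaks, the q was at or below 0.05 for Eif1ax alone (−log10 q of 2.52). Those found in WT only were Eif2b4, Eif3j1 and Eif4g2, with folds between 2.86 and 3.8. The shares of gained and lost members were both near those of all genes. At stricter thresholds the gain was below them, at 3.64% against 5.96% at a q of 0.05 or lower, 3.64% against 6.17% at a p of 1e-05 or lower and 1.82% against 4.52% at a fold of at least 4. The loss at that fold was 0.0% against 1.98%.

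Between shControl and shDdx5, 7 members had a promoter peak in both lists (12.7%, against 9.77% of all genes). A further 12 had it in shDdx5 and not in shControl (21.8%, 12.9 to 34.4, against 13.3%), and 7 in shControl and not in shDdx5 (12.7%, 6.3 to 24.0, against 4.97%). The lower bound of the loss lay above the share of all genes and that of the gain below it. Among genes with CpG-rich promoters the loss was 12.8% of members against 7.04%, and the gain 25.5% against 22.1%. The share of such genes with a peak in both lists was 12.8% of members against 17.3%. The gain was 12.7% of members against 10.5% of all genes with an equal number of strongest peaks per list, 12.7% against 10.8% at a p of 1e-05 or lower, and 9.09% against 7.84% at a fold of at least 4. The loss was 3.64% against 2.11% at that fold. The gained members were Eif1, Eif1ax, Eif2a, Eif2b3, Eif2b4, Eif3c, Eif3d, Eif3i, Eif4a1, Eif4b, Eif4e and Eif4g2. The strongest were Eif4e, at a fold of 5.69 (19 fragments, −log10 q of 6.8), and Eif4a1, the helicase of eIF4F, at 4.62 (17 fragments, −log10 q of 4.42). Those found in shControl only were Eif2b1, Eif2s3x, Eif3f, Eif3k, Eif4g1, Eif4h and Eif5b. Of these, Eif3k was the strongest, at a fold of 4.89 (12 fragments, −log10 q of 2.94). Of the 7 shared members, fold was higher in shDdx5 for 4 and lower for 3, and over all genes it was higher for 68.1%. The shDdx5 list also had the larger share of peaks at q of 0.05 or lower over all its peaks, 60.5% against 28.1% in shControl, and the part of this in the gained members was not tested.

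Eif1ax, Eif2a, Eif3d and Eif4e had a promoter peak in KO and in shDdx5 and in neither WT nor shControl (7.27%, 2.86 to 17.3, against 2.95% of all genes). At a p of 1e-05 or lower and at a fold of at least 4, 0 of 55 members had this pattern, against 2.13% and 1.44% of all genes. No member had the opposite pattern, in WT and shControl only (against 0.365% of all genes). Eif4e encodes the cap-binding protein. Its peaks in KO and shDdx5 had the same summit, 5 bp downstream of an alternative TSS inside the gene. The fold was 3.31 in KO (10 fragments, −log10 q of 0.927) and 5.69 in shDdx5. Eif1ax encodes eIF1A, which keeps the scanning subunit open. Its summit lay 119 bp upstream of the TSS in both lists, at the second base of the window printed above, with a fold of 4.77 in KO and 3.69 in shDdx5 (10 and 9 fragments). Eif2a, a factor separate from eIF2 that can deliver initiator tRNA, had folds of 3.79 and 4.11 (8 and 10 fragments) within 12 bp of its TSS, beside Serp1. Eif3d encodes the cap-binding subunit of eIF3. Its KO peak (fold 3.39) and shDdx5 peak (fold 2.83) did not overlap, the first lying 170 bp upstream of the gene and the second in an intron at another TSS, so the gene was shared and the place was not. Apart from Eif4e in shDdx5, these summits held 8 to 10 fragments, and a library just below the threshold would be listed as having no peak.

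Eif1, the fidelity factor of start codon choice, was the only member with a peak without antibody (fold 4.02, 5 fragments, −log10 q of 0.926). That peak overlapped the Eif1 peaks of WT (fold 3.88), KO (3.13) and shDdx5 (4.06), each of which held more fragments (15, 13 and 17). The part of the antibody in these peaks cannot be told apart from the background of the assay.

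**Figure D3:**
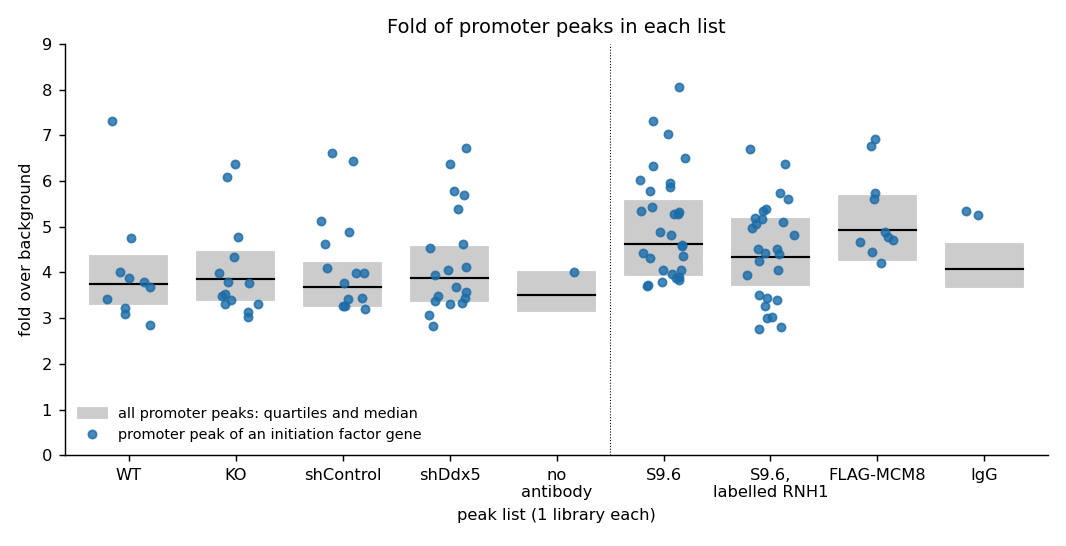
Fold over background (linear axis) of each promoter peak of an initiation factor gene (points) in each list, over the quartiles (grey box) and median (black line) of all promoter peaks in the list. Member peaks lie around the grey boxes, with Eif2ak4 at 7.31 in WT and EIF4G2 at 8.05 in S9.6 the highest points of their lists.

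The strength of member promoter peaks was close to that of promoter peaks in general. The median fold was 3.74 in WT (all promoter peaks 3.75), 3.65 in KO (3.85), 3.99 in shControl (3.68), 3.95 in shDdx5 (3.87), 4.86 in S9.6 (4.62), 4.52 in S9.6 labelled RNH1 (4.33) and 4.84 in FLAG-MCM8 (4.92). Summits of member peaks lay downstream of the nearest TSS in 1 of 10 peaks in WT (10.0%, against 43.3% of all promoter peaks), 3 of 14 in KO (21.4%, against 44.7%) and 3 of 14 in shControl (21.4%, against 46.6%). In shDdx5 it was 8 of 19 (42.1%, against 47.5%), in S9.6 8 of 30 (26.7%, against 45.3%) and in S9.6 labelled RNH1 13 of 27 (48.1%, against 46.5%). For member peaks the nearest TSS was taken over member genes only, and for all promoter peaks over every protein-coding gene at the peak. A peak on the side of a neighbouring gene can thus count as upstream among members and as downstream among all promoter peaks. The shares are therefore not on the same measure, and their differences were not tested. Neighbouring genes and alternative TSSs make the side of a TSS uncertain for many of these peaks.

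**Figure D4:**
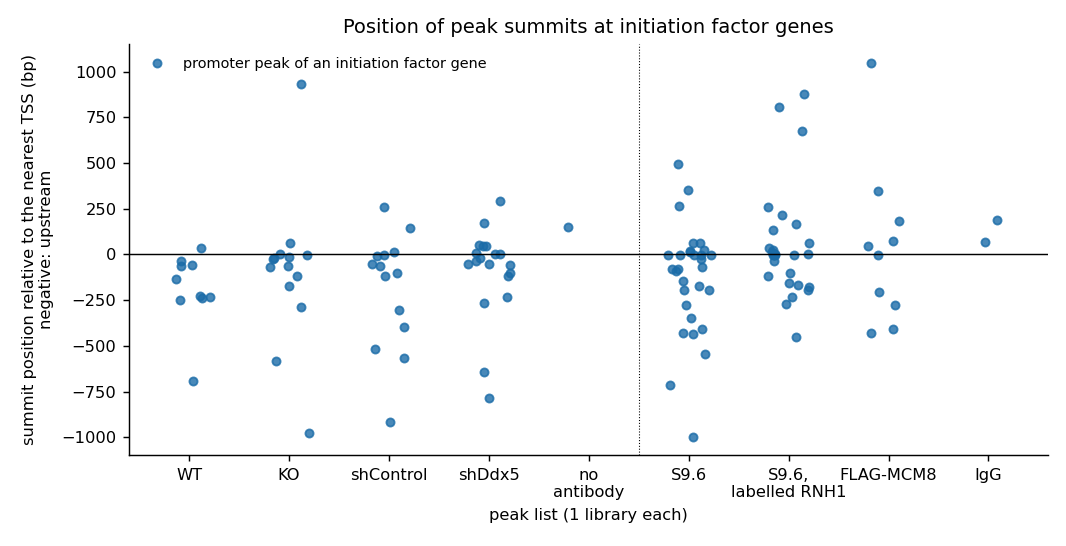
Position of the summit of each member promoter peak relative to the nearest annotated TSS of the gene (bp, negative values upstream of the TSS) in each of the 9 lists. In WT 1 of 10 points lies above 0, and in S9.6 labelled RNH1 13 of 27 do.

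In HEK293 cells, 17 members had a promoter peak in S9.6 and in S9.6 labelled RNH1 (30.4%, 19.9 to 43.3, against 17.5% of all genes). A further 12 had it in S9.6 alone of the pair (21.4%, 12.7 to 33.8, against 12.6%) and 8 in the list labelled RNH1 alone (14.3%, 7.42 to 25.7, against 7.18%). Among genes with at least the members' median number of TSSs, the share in both lists was 26.7% of members against 26.9%. In S9.6 alone it was 26.7% against 17.7%, and in the list labelled RNH1 alone 16.7% against 10.1%. Peaks of the 17 shared members overlapped for 15, and those of EIF3B and EIF4A1 lay at different places. Fold was lower in the list labelled RNH1 for 11 of the 17, higher for 5 and equal for EIF4E, and over all shared genes it was lower for 63.9%.

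**Figure D5:**
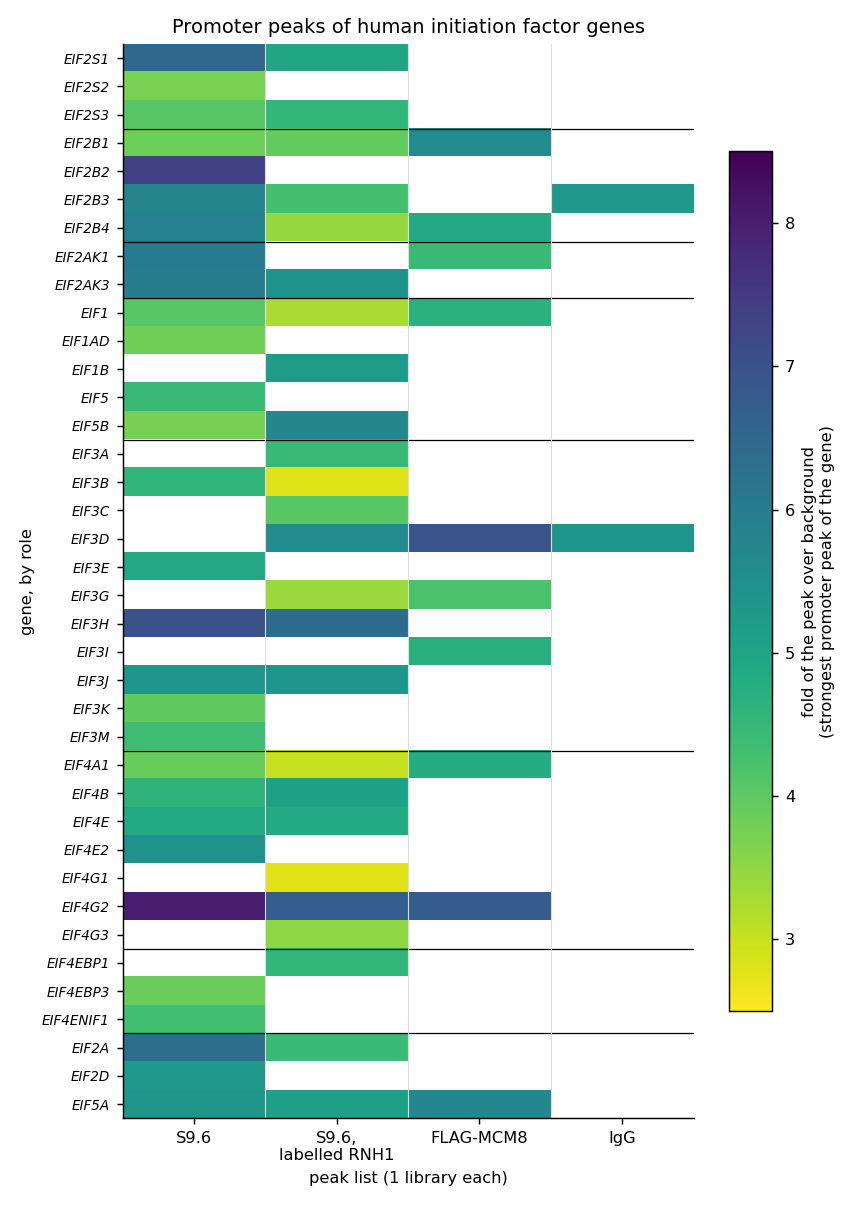
Fold over background of the strongest promoter peak of each human initiation factor gene with a peak in any of the 4 HEK293 lists. Rows are genes in blocks by role, columns are lists, and a blank cell has no promoter peak. EIF4G2 has the highest value, 8.05 in S9.6, and only EIF2B3 and EIF3D are filled in IgG.

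EIF4G2 encodes DAP5, an eIF4G relative that lacks the eIF4E-binding part. It had the strongest member peak of both S9.6 lists, with a fold of 8.05 in S9.6 (48 fragments, −log10 q of 26.0) and 6.7 in S9.6 labelled RNH1 (39 fragments, −log10 q of 18.1). Both summits lay at the same base, 196 bp upstream of the TSS, and IgG had no peak there. EIF2B4, the delta subunit of eIF2B, had a fold of 5.86 (46 fragments, −log10 q of 18.5) in S9.6 and 3.45 (36 fragments, −log10 q of 7.12) in the list labelled RNH1, with background at the summit of 7.02 and 9.72 fragments. Its summits lay within 1 bp of a TSS. EIF5B, the GTPase that joins the ribosomal subunits, was higher in the list labelled RNH1, at 5.73 (29 fragments) against 3.72 (18 fragments). EIF2S3, the gamma subunit of eIF2, was also higher there, at 4.52 (45 fragments, −log10 q of 13.4) against 4.06 (37 fragments), and EIF4B, a helper of the helicase, at 5.06 (34 fragments, −log10 q of 11.6) against 4.6 (32 fragments). EIF2S1 was lower there, at 4.98 (21 fragments) against 6.5 (30 fragments, −log10 q of 13.7). Poisson intervals of the pileups overlapped for each of these genes.

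The 12 members in S9.6 alone were EIF1AD, EIF2AK1, EIF2B2, EIF2D, EIF2S2, EIF3E, EIF3K, EIF3M, EIF4E2, EIF4EBP3, EIF4ENIF1 and EIF5. The strongest was EIF2B2, the beta subunit of eIF2B, at a fold of 7.32 (23 fragments, −log10 q of 12.3), with no peak in the list labelled RNH1. EIF2AK1, the haem-regulated kinase, had a fold of 6.03 (24 fragments). The weakest was EIF2S2, at 3.71 (16 fragments, −log10 q of 3.63). Peaks of EIF3K, EIF3M and EIF4ENIF1 lay 547 to 996 bp upstream of the nearest TSS of the member, and those of EIF3K and EIF4ENIF1 lay towards the genes MAP4K1 and SFI1. Of these 12 members, 6 shared a promoter region with another gene, as did 32.1% of all human members. Of the 18 members with such a neighbour, 33.3% had a peak in S9.6 alone, against 16.1% of all genes with such a neighbour.

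The 8 members in the list labelled RNH1 alone were EIF1B, EIF3A, EIF3C, EIF3D, EIF3G, EIF4EBP1, EIF4G1 and EIF4G3. Of these, 4 encode eIF3 subunits, which make up 14 of the 56 human members. The strongest was EIF3D, at a fold of 5.6 (25 fragments, −log10 q of 9.76). EIF3A had a fold of 4.43 (29 fragments, −log10 q of 8.35) and EIF1B of 5.18 (17 fragments, −log10 q of 6.27). The weakest was EIF4G1, at 2.77 (22 fragments, −log10 q of 2.83). Of the 18 members with a neighbouring promoter, 0 had a peak in this list alone, against 8.82% of all genes with such a neighbour. Reads of EIF3C can fall on its near-identical copy EIF3CL, so its peak is uncertain.

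FLAG-MCM8 and S9.6 shared 7 members (12.5%, 6.19 to 23.6, against 7.39% of all genes), namely EIF1, EIF2AK1, EIF2B1, EIF2B4, EIF4A1, EIF4G2 and EIF5A. A further 3, EIF3D, EIF3G and EIF3I, had a promoter peak in FLAG-MCM8 and not in S9.6 (5.36%, against 4.62%). Both shares had intervals that include the background. The FLAG-MCM8 peak of EIF3D overlapped its peak in S9.6 labelled RNH1 (fold 5.6). That of EIF3G (chr19:10115599-10115868) had its summit in an intron, beside an IgG peak (chr19:10114948-10115546) that it did not overlap. The FLAG-MCM8 and S9.6 peaks overlapped for 6 of the 7, and for EIF2B1 they did not. Its FLAG-MCM8 summit lay 347 bp downstream of an alternative TSS inside the gene, and its S9.6 summit 5 bp upstream of another TSS. EIF4G2 had a fold of 6.76 in FLAG-MCM8 (18 fragments, −log10 q of 8.89), with its summit 410 bp upstream of the TSS, farther out than the 196 bp of S9.6. EIF5A had similar values in all 3 lists, with folds of 5.73 in FLAG-MCM8 (16 fragments), 5.33 in S9.6 (29) and 5.11 in S9.6 labelled RNH1 (32). EIF2B4 had a fold of 4.89 (18 fragments), EIF4A1 of 4.78 (14), EIF1 of 4.66 (17) and EIF2AK1 of 4.44 (13). The FLAG-MCM8 summit of EIF2B4 lay at the same base as that of the list labelled RNH1. The 7 shared members lacked a promoter peak in IgG.

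Of the members, EIF3D had the highest FLAG-MCM8 fold, 6.92 (19 fragments, −log10 q of 9.58), 205 bp upstream of the gene. Its IgG peak (fold 5.35, 26 fragments) lay at another TSS inside the gene, away from the FLAG-MCM8 peak. EIF2B3, the gamma subunit of eIF2B, had an IgG peak (fold 5.26, 27 fragments) that overlapped its peaks in S9.6 (5.78, 21 fragments) and in S9.6 labelled RNH1 (4.26, 21 fragments). For this gene the value of S9.6 was close to that of IgG.

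Between the species, 50 members were matched by symbol. For HEK293 cells only the S9.6 list without the RNH1 plasmid was used here, and for MEFs any of the 4 S9.6 lists. A promoter peak was found in both cell types for 18 of them (36.0%, against 21.3% of 15742 matched protein-coding genes), in MEFs only for 8 (16.0%, against 21.5%), in HEK293 cells only for 9 (18.0%, against 11.9%) and in neither for 15 of 50 (against 45.4%). The lists of the cell types had different thresholds, so these shares are set side by side only. The genes of the 4-list set in MEFs differed in HEK293 cells. EIF5A and EIF2S1 had a peak in both S9.6 lists, EIF5 in S9.6 alone, and EIF2AK4 in neither.

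Other genes of translation, listed by symbol with the earlier results of these data known, were set beside the members (elongation and release factors, poly(A)-binding proteins, the MTOR branch and stress response genes). Of 38 mouse records, in which Ddit3 counts as 2, WT had a promoter peak at 12 (31.6%, against 11.3% of all genes) and KO at 18 (47.4%, against 16.0%). In shControl it was 13 (34.2%, against 14.7%), in shDdx5 23 (60.5%, against 23.1%) and without antibody 0 (against 1.24%). The S9.6 shares were above those of the members, but the list was not matched to the members and the difference was not tested. Of 37 human genes, 20 had a promoter peak in S9.6 (54.1%, against 30.1%) and 17 in S9.6 labelled RNH1 (45.9%, against 24.6%). FLAG-MCM8 had 9 (24.3%, against 12.0%) and IgG 4 (10.8%, against 5.59%). Denr, Eef2k, Gspt1, Mtor and Paip2b had a promoter peak in KO and shDdx5 and in neither WT nor shControl (13.2% of records, against 2.95% of all genes). Ddit3, the stress factor CHOP, Eef1a1 and Eef1g, elongation factors, Mknk2, a kinase of eIF4E, Ppp1r15b, a phosphatase subunit that acts on eIF2, and Rps6kb1, a kinase under MTOR, had a promoter peak in all 4 S9.6 lists of MEFs. With Ddit3 counted as 2, these were 7 of 38 records (18.4%, against 4.19% of all genes).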

How the data were processed

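CUT&Tag libraries of MEFs and HEK293 cells were grouped by their titles, 1 library per group. Per the study's methods, the authors trimmed reads, aligned them with bowtie2 to mm10 or hg38 and called peaks with MACS2, in MEFs without the no-antibody library as input. The submitters' processing notes name Trimmomatic, Bowtie2 and MACS2 (version 2.1.2). The methods give another MACS2 version and a fold and p cutoff for HEK293 peaks, but the deposited HEK293 lists hold folds down to 1.72 and no p above 1e-05. The input of the HEK293 lists and any filter on mapping quality are not given in the sources used here. The deposited narrow peak files give each peak a fold ratio over local background, a −log10 p and −log10 q by the authors' caller, a display score and a summit offset.

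Promoter peaks were assigned with GENCODE annotations in Python 3.11.15 (numpy 2.4.6, pandas 2.3.3, scipy 1.17.1, pysam 0.24.0, matplotlib 3.10.9). Pileup and background were solved from fold and p, and the steps were tested on simulated data. Shares were given 95% Wilson intervals and pileups exact Poisson intervals, which cover counting error only. With 1 library per group no test between groups was possible. Of the human peaks, 6 to 9 per list outside the main chromosomes were left out. Members, roles, the list of other translation genes and comparisons were chosen with earlier results of these data known. Members named with values were those in all 4 S9.6 lists of MEFs, in KO and shDdx5 only, differing between the S9.6 lists of HEK293 cells or shared with FLAG-MCM8, present in a control list, or among the 3 highest by −log10 q in a list. Alternatives restricted the peaks (q to 0.05, p to 1e-05, or fold to 4 and above) or used a window of 500 bp, any base of the peak within 1 kb, 1 TSS per gene, members without a shared promoter, peaks without a control peak, and an equal number of strongest peaks.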

Additional observations from a re-analysis of the deposited data

Results flagged for a closer look

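For 3 members the listed promoter peaks differed in opposite directions in the pair WT and KO and the pair shControl and shDdx5. The share of all genes with this pattern was not counted. Eif3k, an eIF3 subunit gene, had a peak in KO (fold 3.48) and none in WT, and a peak in shControl (fold 4.89) and none in shDdx5. Eif2b4 had a peak in WT (fold 2.86) and none in KO, and a peak in shDdx5 (fold 3.58) and none in shControl. These WT and shDdx5 peaks of Eif2b4 did not overlap, so the gene was shared and the place was not. Eif4g2 had a peak in WT (fold 3.8) and none in KO, and a peak in shDdx5 (fold 3.37) and none in shControl. The −log10 q was 0.972 for Eif3k in KO (9 fragments), 0.517 for Eif2b4 in WT (11) and 0.959 for Eif4g2 in shDdx5 (8). These peaks thus had a q above 0.05, and the other peaks named here had a q below it. With 1 library per group these differences were not tested.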

How the results depend on the processing

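No paired analysis was possible because each group held 1 library. Of 9 alternatives, a window of 500 bp, any base within 1 kb, 1 TSS per gene, members without a shared promoter and peaks without a control peak left every share within its interval. With a q of 0.05 or lower, the share of members became 9.09% in WT and in KO, 0.0% without antibody and 3.64% in KO and not in WT. With a p of 1e-05 or lower it became 10.9% in KO, 21.8% in shDdx5, 0.0% without antibody, 3.64% in KO and not in WT, 12.7% in shDdx5 and not in shControl, and 0.0% in both KO and shDdx5 and in neither of the others. With a fold of at least 4 it became 5.45% in WT, 7.27% in KO, 10.9% in shControl, 16.4% in shDdx5, 30.4% in S9.6 labelled RNH1, 1.82% in KO and not in WT, 0.0% in WT and not in KO, 9.09% in shDdx5 and not in shControl, 3.64% in shControl and not in shDdx5, and 0.0% in KO and shDdx5 only. With the same number of strongest peaks per list (6481 in MEFs) it became 21.8% in shDdx5 and 12.7% in shDdx5 and not in shControl. The stricter thresholds keep fewer peaks by construction. The members' share stayed above that of all genes in all 10 settings, the main one included, for WT, shControl, shDdx5, both S9.6 lists of HEK293 cells and FLAG-MCM8, and in 9 of 10 for KO, where it was 9.09% against 9.8% at a q of 0.05 or lower. The depth of the libraries is unknown, and a missing peak may have been just below the threshold. The HEK293 lists skip 1473 to 2096 peak numbers on the main chromosomes, so a peak missing there may also have been called and left out of the deposited list.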

Other observations

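Peaks inside the members with a midpoint more than 1 kb from any TSS of the gene were counted without a background over all genes. In MEFs there were 4 in WT, 9 in KO, 13 in shControl, 10 in shDdx5 and 1 without antibody, and in HEK293 cells 7 in S9.6, 10 in S9.6 labelled RNH1, 6 in FLAG-MCM8 and 5 in IgG. Eif4g3, an eIF4G gene, held 3 of the 4 in WT. Its human counterpart EIF4G3 held 3 of the 7 in S9.6 and 5 of the 10 in the list labelled RNH1. Both genes are long, at chr4:137993022-138208508 in mm10 and chr1:20806292-21177285 in hg38. The median member length was 18.8 kb in mouse and 23.9 kb in human, and the counts were not scaled by length. IgG also had a peak elsewhere inside EIF4G3 (chr1:21089776-21090088, fold 4.38). Inside EIF4G3, S9.6 (chr1:21035218-21035595, fold 4.82), S9.6 labelled RNH1 (chr1:21035215-21035679, fold 4.91) and FLAG-MCM8 (chr1:21035302-21035650, fold 4.27) had a peak at the same place in hg38, where IgG had none. EIF4EBP2, a repressor of eIF4E with no promoter peak in these lists, had a peak inside the gene in S9.6 (fold 3.67), S9.6 labelled RNH1 (4.05) and FLAG-MCM8 (4.67). The S9.6 peak (chr10:70405684-70405981) and that of the list labelled RNH1 (chr10:70405194-70405653) did not overlap. The FLAG-MCM8 peak (chr10:70405318-70405817) overlapped each of them. The TSS lies at 70404145, so these peaks were not far beyond the promoter window. These genes were chosen after their values were seen.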
